A study of Homo sapiens with 9 samples.

Results

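The HOX cluster genes are the 39 protein-coding genes named HOXA, HOXB, HOXC or HOXD followed by a number. They were taken by name out of 56349 genes to which the listed transcripts could be matched, 19494 of them protein-coding. HOXA holds 11 members, HOXB 10, HOXC 9 and HOXD 9. The question put to the data was which clusters and positions these kidney-derived cells express, and in which fraction. A further question was how the members respond to loss of the m6A writer.

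The cells were HEK293, a line derived from human embryonic kidney (the methods name a derivative of it that carries the SV40 large T antigen). Cells transfected with a control siRNA were compared with cells given siRNAs against both WTAP and KIAA1429 (gene symbol VIRMA, Virilizer in the labels), here called RNAi cells. Both proteins are subunits of the nuclear complex that writes N6-methyladenosine (m6A) on mRNA. RNA was taken separately from nuclei and cytoplasm, which gave 3 control nuclear, 3 RNAi nuclear, 1 control cytoplasmic and 2 RNAi cytoplasmic samples. The labels number the replicates but do not say whether they came from separate cultures, so the p-values measure the spread between these samples, which may be technical.

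HOX genes encode transcription factors that bind DNA through a homeodomain and give cells of the body axis their regional identity. The paralog number follows the order along a cluster, from group 1 at the 3′ end, which is used in anterior tissue, to group 13 at the 5′ end, used in the most posterior tissue. Members with the same number in different clusters descend from one ancestral gene. HOX proteins usually bind together with partners of the TALE class (PBX, MEIS and PKNOX), and the group 11 genes are needed for the metanephric kidney to form.

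The homeobox, the stretch of 180 bases that encodes the 60 residues of the homeodomain, was found in the annotated coding sequence of all 39 members, and in each it lay within 1 exon. HOXB9, HOXC9 and HOXD9 of group 9 are printed first because they include the most abundant HOX gene of the cells and the member with the strongest nuclear bias in control cells. HOXC10, the most abundant of the members called cytoplasmic in both control and RNAi cells, follows. The sequences are 5′ to 3′ on the coding strand, from the GENCODE transcripts lifted to GRCh37 (the hg19 build the files name), with the codons of homeodomain residues 42 to 59, the recognition helix that lies in the major groove of DNA, in capitals.
HOXB9, chr17:46700283-46700462 (- strand): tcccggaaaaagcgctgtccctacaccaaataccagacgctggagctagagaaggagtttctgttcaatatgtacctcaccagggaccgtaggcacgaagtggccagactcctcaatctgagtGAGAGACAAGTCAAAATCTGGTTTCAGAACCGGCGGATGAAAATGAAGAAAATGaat
HOXC9, chr12:54396249-54396428 (+ strand): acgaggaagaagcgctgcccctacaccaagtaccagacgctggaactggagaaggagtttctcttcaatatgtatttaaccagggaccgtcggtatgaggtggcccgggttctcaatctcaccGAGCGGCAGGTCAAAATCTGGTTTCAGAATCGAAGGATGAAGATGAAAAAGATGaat
HOXD9, chr2:176988697-176988876 (+ strand): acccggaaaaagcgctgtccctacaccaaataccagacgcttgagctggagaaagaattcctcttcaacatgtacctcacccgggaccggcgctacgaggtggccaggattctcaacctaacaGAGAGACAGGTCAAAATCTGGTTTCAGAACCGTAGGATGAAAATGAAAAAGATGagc
HOXC10, chr12:54383003-54383182 (+ strand): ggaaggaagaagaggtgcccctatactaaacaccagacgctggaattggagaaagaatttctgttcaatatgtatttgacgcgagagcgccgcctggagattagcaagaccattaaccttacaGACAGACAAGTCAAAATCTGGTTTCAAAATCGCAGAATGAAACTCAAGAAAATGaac

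Within group 9 the homeoboxes were 81.7 to 84.4% identical as bases and 91.7 to 96.7% identical as residues. HOXB9, HOXC9 and HOXD9 encode the same recognition helix, while HOXA9 encodes a different one. Over all members the capitals held 39 different stretches of 54 bases that encode 18 different helices, and the largest group with 1 helix comprised HOXA5, HOXB4, HOXB5, HOXC4, HOXC5 and HOXD4. The median base identity was 81.7% over the 42 pairs of the same paralog group and 60.6% over the 699 other pairs. The longest stretch of bases shared exactly by any pair was 51 bases, in HOXB6 and HOXB7 and again in HOXB3 and HOXD3. Reads that fall wholly inside such a stretch can be assigned to either gene.

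Levels are given as TPM, the authors' transcript abundances scaled to the same total in every sample, which correct for transcript length and therefore allow different genes to be compared. The samples held 11627403 to 19036141 estimated read counts each. Of the 39 members, 35 (89.7%) had a mean over the 9 samples of at least 1 TPM and 26 (66.7%) of at least 10 TPM. Of all protein-coding genes, 61.1% reached 1 TPM and 30.5% reached 10 TPM. The HOX genes together summed to 943 to 1451 TPM per sample. All 4 clusters had members at 1 TPM or more, and so had every paralog group except group 12.

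**Figure D1:**
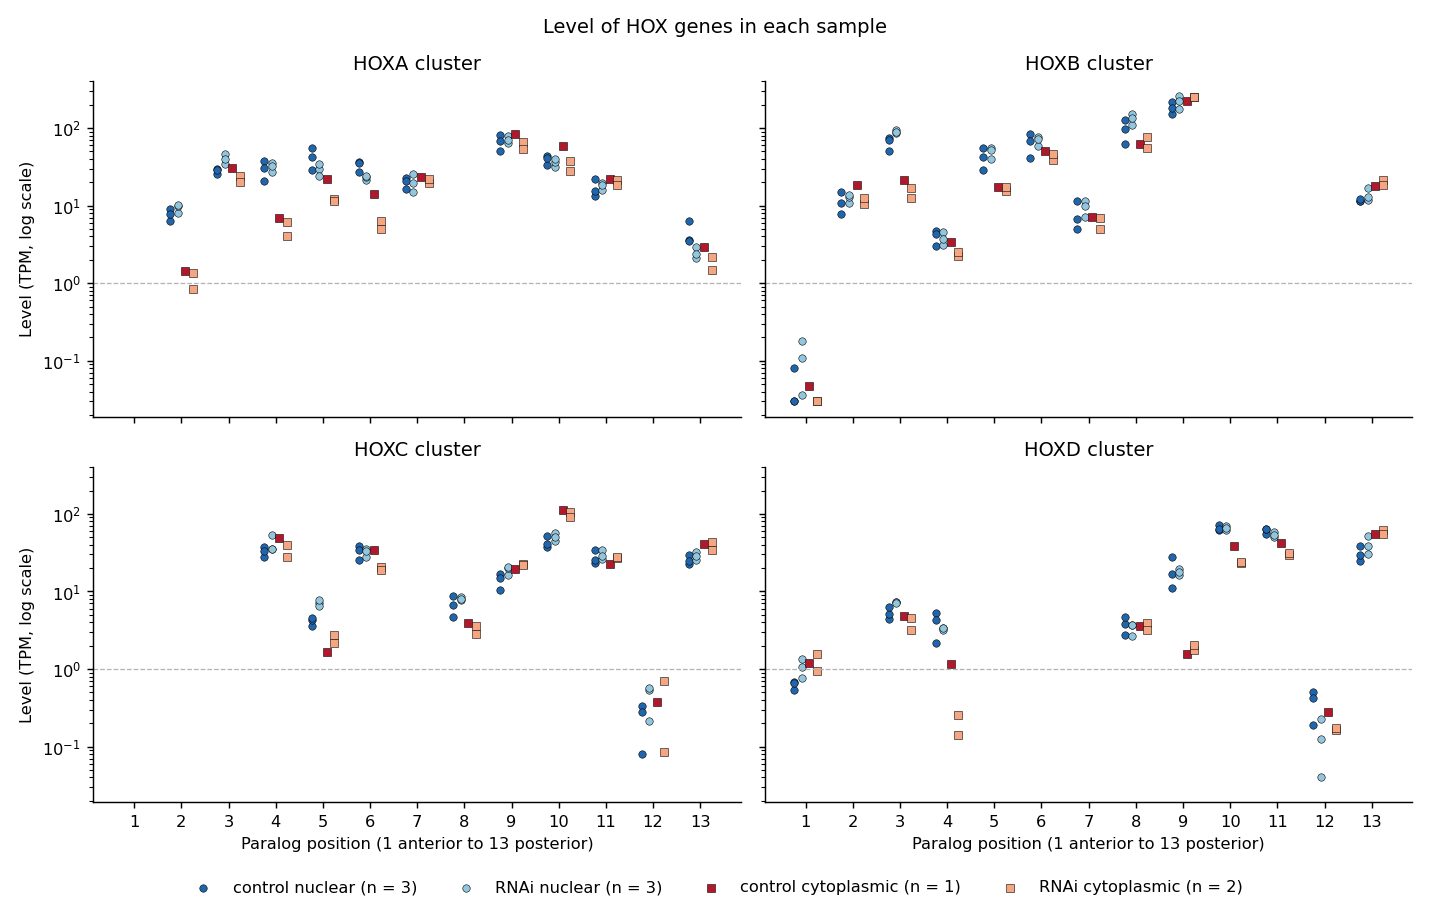
Level of HOX genes in TPM (log axis) against paralog position, 1 panel per cluster, with 1 point per sample coloured by fraction and siRNA; values at or near 0 are drawn at a floor close to the bottom of the axis and the dashed line marks 1 TPM. HOXB9 stands highest, the 3′ members HOXB1 and HOXD1 and the group 12 members stand lowest, and the cytoplasmic squares lie far below the nuclear circles for HOXA2, HOXA4, HOXD4 and HOXD9.

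HOXB had the largest share of the HOX RNA of the 4 clusters. Its share of the summed HOX TPM was 41.1 to 46.6% in the 6 nuclear samples and 37.01 to 45.6% in the 3 cytoplasmic samples. HOXA followed with 22.4 to 26.1% in nuclei and 18.8 to 24.8% in cytoplasm. These 2 clusters did not separate the fractions, since their nuclear and cytoplasmic ranges overlapped. The HOXC share was 15.8 to 18.1% in nuclei and 23.3 to 26.1% in cytoplasm, so that every cytoplasmic sample lay above every nuclear one. HOXD went the other way, with 14.5 to 17.3% in nuclei and 12.3 to 13.1% in cytoplasm. The HOXA share was also lower in the RNAi than in the control samples of each fraction, at 22.4 to 22.7% against 25.0 to 26.1% in nuclei and at 18.8 and 20.7% against 24.8% in the single control cytoplasmic sample. The shares of a sample sum to a fixed total and are given as a description. With read counts in place of TPM the mean HOXB share over the 9 samples was 52.7% instead of 42.9% and that of HOXA 17.1% instead of 23.2%.

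**Figure D2:**
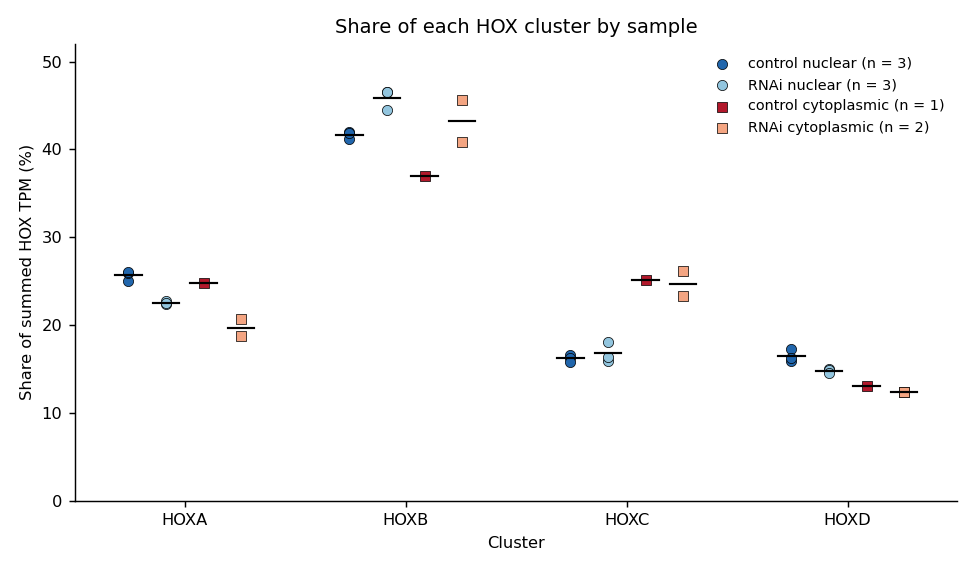
Share of the summed HOX TPM (%) taken by each cluster in each sample, with 1 point per sample and a horizontal bar at the group mean. HOXC takes 23.3 to 26.1% in the cytoplasmic samples and 15.8 to 18.1% in the nuclear ones.

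By position, group 9 carried the largest part, with a mean of 314 TPM or 27.1% of the HOX total, and HOXB9 led it. Group 10 followed with 158 TPM, led by HOXC10, then group 6 with 111 TPM (led by HOXB6) and group 8 with 107 TPM (led by HOXB8). Groups 3, 11 and 13 each held 92.1 to 95.8 TPM. Group 12 summed to 0.589 TPM. Among the kidney-related group 11 genes, HOXD11 had a mean of 49.7 TPM, HOXC11 of 27.7 TPM and HOXA11 of 18.4 TPM. Of the HOXD11 mean, 34.7 TPM belonged to HOXD11-202, which has no annotated coding sequence, and 15.1 TPM to the coding HOXD11-201. The main transcripts of HOXC11 and HOXA11 are coding, at means of 22.2 and 18.3 TPM. The order of the genes thus does not hold for coding transcripts.

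HOXB9 was at 154, 214 and 181 TPM in the control nuclei, 175, 257 and 223 TPM in the RNAi nuclei, 222 TPM in the control cytoplasm and 249 and 254 TPM in the RNAi cytoplasm. It was the highest HOX gene in 9 of 9 samples, took 15.2 to 26.01% of the HOX total, and its mean of 214 TPM exceeded that of 98.0% of protein-coding genes. HOXB8, its 3′ neighbour, was at 62.4, 126 and 96.1 TPM in the control nuclei, 111, 153 and 136 TPM in the RNAi nuclei, 61.5 TPM in the control cytoplasm and 55.9 and 77.3 TPM in the RNAi cytoplasm. HOXB8 stood second in 5 of the 6 nuclear samples, and HOXC10 stood second in 3 of the 3 cytoplasmic samples. In counts scaled to library size (CPM), HOXD13 instead lay above HOXC10 in cytoplasm. There HOXD13 was at 119 CPM in the control sample and 152 and 159 CPM in the RNAi samples, and HOXC10 at 114, 117 and 124 CPM.

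HOXC10, a posterior gene used in hindlimb and lumbar spinal cord, was at 37.6, 52.01 and 41.1 TPM in the control nuclei, 44.7, 57.1 and 50.3 TPM in the RNAi nuclei, 112 TPM in the control cytoplasm and 106 and 91.6 TPM in the RNAi cytoplasm. The 2 fractions did not overlap for this gene. HOXA9, best known for its role in blood progenitors and leukaemia, was at 50.9, 81.7 and 68.8 TPM in the control nuclei, 63.6, 80.0 and 69.7 TPM in the RNAi nuclei, 85.1 TPM in the control cytoplasm and 66.3 and 53.9 TPM in the RNAi cytoplasm. HOXB6 was at 41.5, 83.4 and 67.5 TPM in the control nuclei, 59.2, 77.4 and 71.4 TPM in the RNAi nuclei, 50.04 TPM in the control cytoplasm and 39.1 and 45.9 TPM in the RNAi cytoplasm. For HOXA9 and HOXB6 the nuclear and cytoplasmic values overlapped.

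HOXB3 showed the widest gap between fractions among the 10 most abundant members. It was at 74.4, 50.8 and 69.1 TPM in the control nuclei, 93.5, 85.6 and 88.1 TPM in the RNAi nuclei, 21.5 TPM in the control cytoplasm and 17.02 and 12.49 TPM in the RNAi cytoplasm. HOXD10 was at 61.8, 71.1 and 63.4 TPM in the control nuclei, 62.0, 70.8 and 65.6 TPM in the RNAi nuclei, 38.5 TPM in the control cytoplasm and 23.3 and 23.7 TPM in the RNAi cytoplasm. HOXD11, its 5′ neighbour, was at 54.8, 63.9 and 63.4 TPM in the control nuclei, 49.7, 59.1 and 53.2 TPM in the RNAi nuclei, 42.8 TPM in the control cytoplasm and 29.6 and 31.3 TPM in the RNAi cytoplasm. All 3 genes had every nuclear value above every cytoplasmic one. HOXD10 and HOXD11 share 452 exonic bases, 18.2 and 21.4% of each, so reads there cannot be told apart.

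HOXD13, the terminal HOXD gene, required for digits and the urogenital tract, was at 24.9, 39.01 and 29.8 TPM in the control nuclei, 30.6, 51.3 and 38.5 TPM in the RNAi nuclei, 54.5 TPM in the control cytoplasm and 61.7 and 55.7 TPM in the RNAi cytoplasm. HOXA10 was at 33.8, 44.02 and 41.3 TPM in the control nuclei, 31.5, 36.6 and 40.2 TPM in the RNAi nuclei, 58.3 TPM in the control cytoplasm and 37.6 and 28.2 TPM in the RNAi cytoplasm. HOXD13 was higher in every cytoplasmic sample, whereas the HOXA10 ranges overlapped. From HOXA9 down to HOXA10 the means of neighbours in this order differed by less than the range of either gene over the samples.

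The next 16 members had means of 12.46 to 37.7 TPM, among them HOXC4, HOXB5, HOXC13, HOXA3, HOXC6, HOXA5, HOXC11, HOXA4, HOXA6, HOXA7, HOXA11, HOXC9, HOXB13, HOXD9 and HOXB2. A further 9 members had means of 2.59 to 7.88 TPM, namely HOXB7, HOXA2, HOXC8, HOXD3, HOXC5, HOXD8, HOXB4, HOXA13 and HOXD4. HOXA13 is represented here by a single transcript without an annotated coding sequence, so its value is no measure of its coding mRNA. The 4 lowest members were HOXD1 (0.972 TPM), HOXC12 (0.351 TPM), HOXD12 (0.238 TPM) and HOXB1 (0.0506 TPM). HOXB1, a hindbrain gene, was at 0 in 4 of the 9 samples, and at these depths 3 counts correspond to 0.19 to 0.303 CPM (counts scaled to library size).

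The fraction labels were checked on RNAs known to stay in the nucleus. MALAT1 was at 11.2 to 20.5 TPM in nuclei and 0.461 to 1.51 TPM in cytoplasm, and NEAT1 at 11.5 to 21.1 TPM and 1.22 to 2.98 TPM. WTAP was at 9.23, 12.6 and 9.10 TPM in the control nuclei and 4.32, 6.70 and 6.08 TPM in the RNAi nuclei, and at 15.9 TPM in the control cytoplasm and 3.03 and 2.59 TPM in the RNAi cytoplasm. VIRMA was at 3.43, 6.04 and 7.02 TPM in the control nuclei and 3.80, 2.43 and 1.80 TPM in the RNAi nuclei, where the groups overlapped, and at 5.25 TPM in the control cytoplasm and 1.47 and 0.993 TPM in the RNAi cytoplasm. Of the kidney patterning markers, SIX2 was at 27.9 to 90.2 TPM and SALL1 at 24.6 to 35.5 TPM, but PAX8, a defining gene of renal epithelium, did not exceed 0.258 TPM. NEFM, a neurofilament gene, was at 51.7 to 114 TPM.

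Many HOX RNAs were unequally divided between nucleus and cytoplasm, as were many of all genes. Gene counts were compared by edgeR's quasi-likelihood test, and a gene was called at an absolute log2 change above 0.5 with a Benjamini-Hochberg adjusted p (FDR) under 0.1, the thresholds of the study. Of the 39 members, 37 passed the filter on low counts, and HOXB1 and HOXD12 did not. In control cells 12 of the 37 were higher in nuclei and 9 were higher in cytoplasm, that is 32.4 and 24.3%. Of all 16181 genes tested, 50.8% were called in this comparison (28% nuclear and 22.7% cytoplasmic). In RNAi cells, which are other samples, 15 members (40.5%) were nuclear and 9 (24.3%) cytoplasmic, against 57.8% of all genes (32.9 and 24.9%). The cytoplasmic shares of the members were thus near those of all genes. The nuclear shares were 32.4 against 28% and 40.5 against 32.9%, gaps that were not tested. Of the 13474 protein-coding genes tested, 3130 were nuclear and 3555 cytoplasmic in control cells, and 3609 and 3832 in RNAi cells. Protein-coding genes thus had a smaller nuclear share than all genes. The members were given no test as a set. The log2 values compare shares of each fraction's RNA, not molecules per cell, and in such bulk samples fewer cells of a type and less RNA per cell cannot be told apart. With library size as the only scaling the RNAi split was 18 nuclear to 4 cytoplasmic, against 6456 and 2090 of the 16181 genes. This scaling shifted the median of all genes from 0.035 to 0.305.

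All 12 members that were nuclear in control cells were also nuclear in RNAi cells. Of the 9 cytoplasmic members, 5 were cytoplasmic in both, and no member was called in opposite directions. No share over all genes was computed for these counts, so they are not a trait of the members. HOXD9 had the highest nuclear excess in control cells, with a log2 difference of 3.47 ± 0.41 (SE, FDR = 0.000136 in edgeR). It was at 11.1, 28.1 and 16.95 TPM in the control nuclei, 16.3, 19.5 and 17.6 TPM in the RNAi nuclei, 1.56 TPM in the control cytoplasm and 1.75 and 2.04 TPM in the RNAi cytoplasm. HOXC9, whose recognition helix is the same, was instead higher in cytoplasm by 0.60 ± 0.18 (SE, FDR = 0.0208 in edgeR, control cells). HOXC9 was at 10.6, 16.9 and 15.01 TPM in the control nuclei, 16.3, 20.02 and 20.9 TPM in the RNAi nuclei, 19.8 TPM in the control cytoplasm and 22.4 and 22.2 TPM in the RNAi cytoplasm.

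HOXA2, which patterns the second branchial arch, was at 6.37, 8.98 and 7.79 TPM in the control nuclei, 8.12, 9.90 and 10.2 TPM in the RNAi nuclei, 1.43 TPM in the control cytoplasm and 0.833 and 1.34 TPM in the RNAi cytoplasm. HOXA4 was at 21.0, 37.2 and 30.4 TPM in the control nuclei, 27.3, 35.6 and 32.5 TPM in the RNAi nuclei, 6.94 TPM in the control cytoplasm and 4.06 and 6.16 TPM in the RNAi cytoplasm. The log2 nuclear excess in control and RNAi cells was 2.34 and 2.74 for HOXA2 and 1.75 and 2.20 for HOXA4, all called. HOXB5 (1.19 and 1.201), HOXB3 (1.21 and 1.64), HOXD10 (1.17 and 1.45) and HOXD11 (0.53 and 0.55) were nuclear in both as well, as was HOXC8 (0.68 and 0.96). HOXB6, HOXB8 and HOXD3 were called nuclear in RNAi cells, at 0.59, 0.66 and 0.91.

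On the cytoplasmic side HOXC10 differed most, by a log2 of -1.18 ± 0.17 in control cells and -1.28 ± 0.14 in RNAi cells (SE, FDR = 0.000355 and 3.65e-05 in edgeR). HOXD13 (-0.89 and -0.95), HOXC13 (-0.75 and -0.80) and HOXB13 (-0.64 and -0.91) were also cytoplasmic in both, so that 3 of the 4 group 13 genes were. The other, HOXA13, was not called in either, but only a transcript without an annotated coding sequence was measured for it. HOXC13, which acts in hair and nail, was at 22.4 to 32.3 TPM in nuclei and 34.0 to 43.1 TPM in cytoplasm. HOXB13, a prostate and hindgut gene, was at 11.6 to 16.8 TPM in nuclei and 17.7 to 21.1 TPM in cytoplasm. Neither gene's ranges overlapped between the fractions. HOXA10, HOXB2, HOXC4 and HOXD1 were called cytoplasmic in control cells at -0.67, -0.83, -0.76 and -1.02, and HOXA7, HOXA11 and HOXB9 were among those called in RNAi cells, at -0.58, -0.52 and -0.60. That these were called in 1 set of cells does not show a difference between the sets. The RNAi-cell calls of HOXA7, HOXA11 and HOXB9 were lost in 7, 9 and 7 of 20 alternative settings, and that of HOXC10 in 0 of 20.

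By position, the 15 tested members of groups 4 to 8 comprised 7 nuclear and 1 cytoplasmic in control cells, with a median log2 difference of 0.56, and 9 and 1 in RNAi cells, with a median of 0.66. The 15 tested members of groups 9 to 13 comprised 3 nuclear and 6 cytoplasmic in control cells, with a median of -0.47, and 3 and 7 in RNAi cells, with a median of -0.33. The 7 tested members of groups 1 to 3 were split 2 to 2 in control cells and 3 to 1 in RNAi cells. HOXA2 and HOXB3 were the nuclear members of groups 1 to 3 in control cells, and HOXD9, HOXD10 and HOXD11 those of groups 9 to 13. By cluster the control median was -0.14 for HOXA, 0.17 for HOXB, -0.60 for HOXC and 0.32 for HOXD. The grouping by position was made after the values were seen, and it was given no test.

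**Figure D3:**
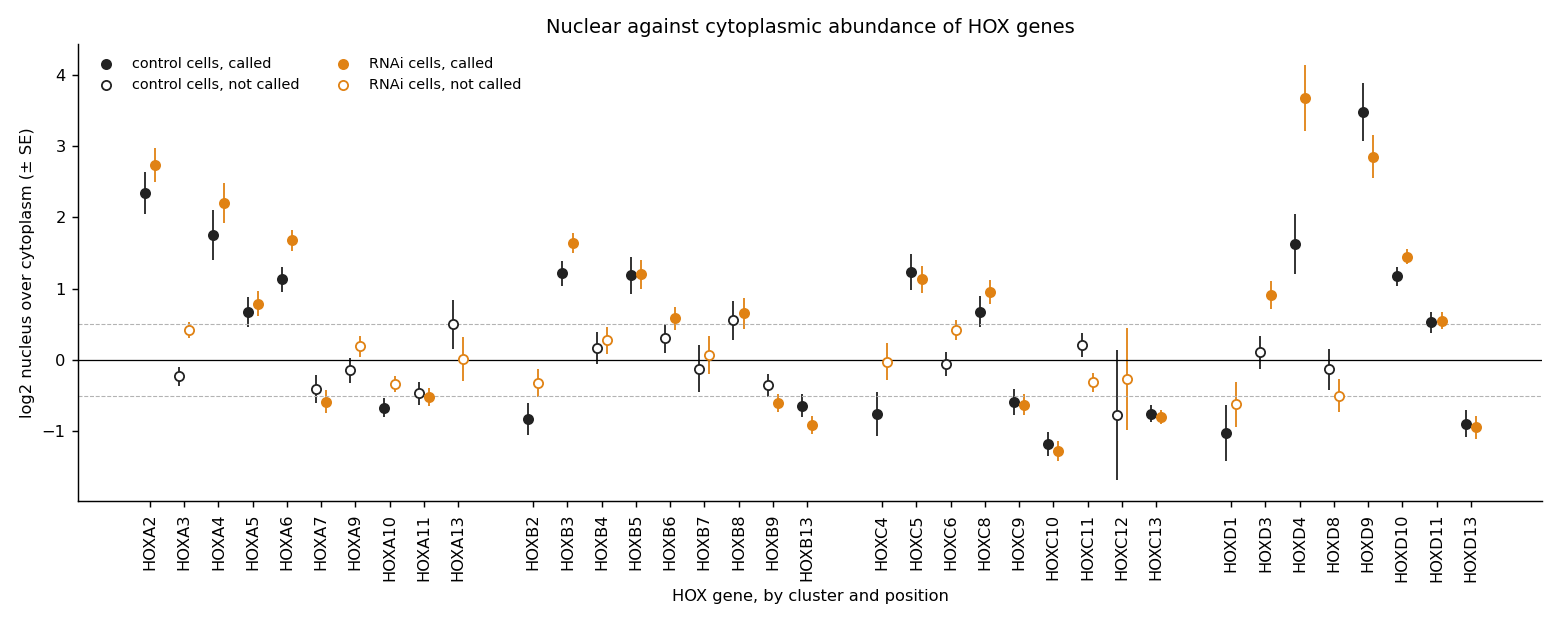
Log2 difference between nucleus and cytoplasm (± SE, edgeR) for tested members, ordered by cluster and position, in control cells (black) and RNAi cells (orange); filled points passed both thresholds and dashed lines mark 0.5 and -0.5. HOXD9, HOXD4, HOXA2 and HOXA4 reach the highest values and HOXC10 the lowest of the members called in both.

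The division between the fractions was also seen within single genes. Salmon splits reads among the transcripts of a gene, so these values are estimates that depend on the annotation, and they are given without a test. Of the 72 HOX transcripts with a mean of at least 1 TPM, 26 had every nuclear value above every cytoplasmic one and 9 the reverse. Of all 34699 transcripts at that level, 27.8% had every nuclear value above and 9.07% every cytoplasmic value above. Transcripts of the retained intron class (2 are listed, HOXB3-209 among them) took 0.465 to 1.68% of the HOX TPM in nuclei and 0.02 to 0.033% in cytoplasm. Transcripts without an annotated coding sequence took 10.2 to 12.7% in nuclei and 7.94 to 10.6% in cytoplasm.

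HOXB3 had the most mixed output. The retained-intron transcript HOXB3-209 made up 12.1 to 20.6% of its TPM in nuclei and 0 to 1.96% in cytoplasm. HOXB3-204 was at 16.4 to 28.7 TPM in nuclei and 1.43 to 2.03 TPM in cytoplasm. It is annotated as coding but ends before the homeobox. HOXB3-207 was at 9.63 to 17.6 TPM in nuclei and 3.29 to 9.07 TPM in cytoplasm. In HOXB6 the transcript HOXB6-203 was at 23.8 to 40.0 TPM in nuclei and 6.94 to 12.2 TPM in cytoplasm. HOXB6-201 was at 5.96 to 42.7 TPM in nuclei and 29.2 to 38.1 TPM in cytoplasm, where it made up 71.6 to 83.0% of the gene. HOXB3 and HOXB6 share 433 exonic bases, 16.6% of those of HOXB6.

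In HOXD10 the 1989-base coding transcript HOXD10-201 was at 33.7 to 41.6 TPM in nuclei and 5.31 to 7.97 TPM in cytoplasm. HOXD10-202, which has no annotated coding sequence, was at 7.25 to 12.8 TPM in nuclei and 9.36 to 17.1 TPM in cytoplasm. HOXD10-203, also without one, was at 13.9 to 23.8 TPM in nuclei and 4.38 to 13.4 TPM in cytoplasm. In HOXC10 both main transcripts annotated as coding were higher in cytoplasm. HOXC10-201 was at 40.9 to 48.5 TPM there against 16.9 to 31.8 TPM in nuclei, and HOXC10-205 at 45.9 to 57.2 TPM against 12.9 to 24.5 TPM. HOXC10-205 ends before the homeobox, and it made up 50.1 to 53.3% of the HOXC10 TPM in cytoplasm. Of the HOXD11 TPM, 60.9 to 81.8% went to HOXD11-202, which has no annotated coding sequence.

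**Figure D4:**
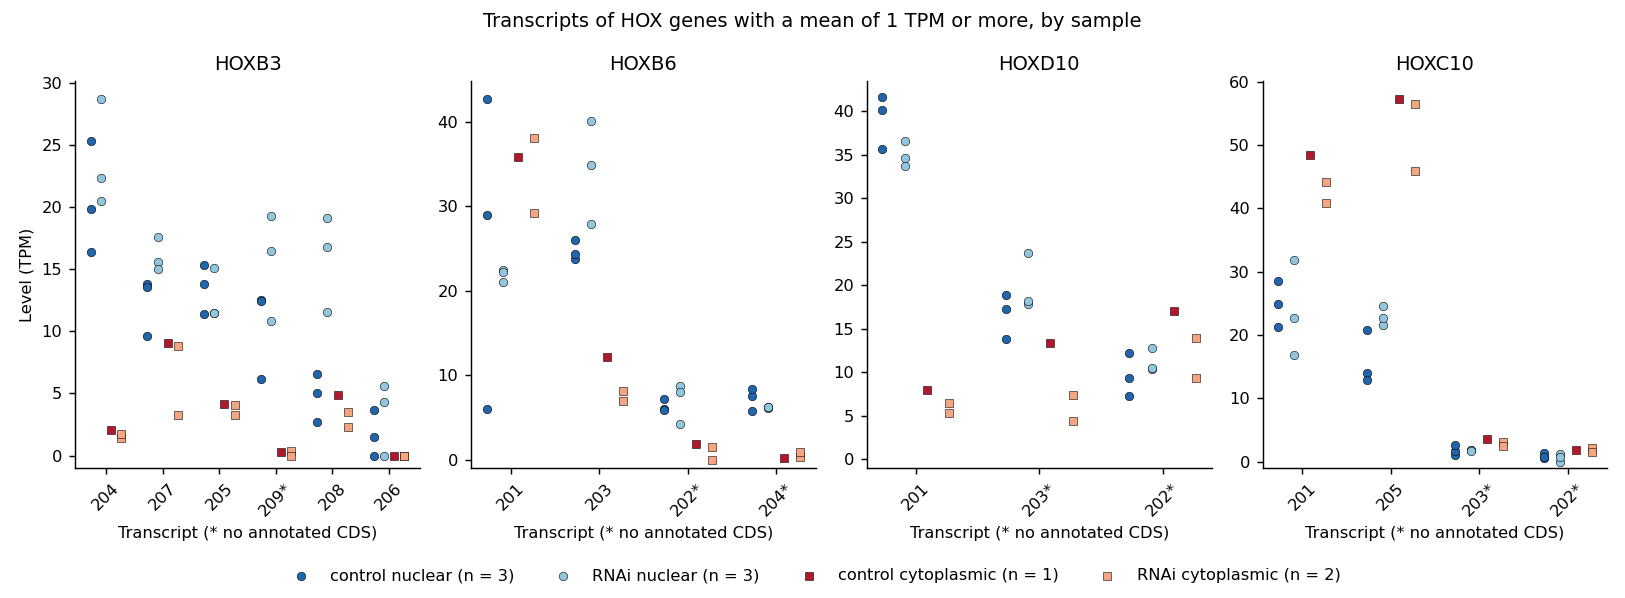
TPM of the transcripts of HOXB3, HOXB6, HOXD10 and HOXC10 with a mean of at least 1 TPM, 1 point per sample coloured by group, on a linear axis; an asterisk marks a transcript without an annotated coding sequence. HOXB3-209 is at 6.16 TPM or more in every nuclear sample and at 0.333 TPM or less in every cytoplasmic one, while HOXC10-201 and HOXC10-205 are higher in cytoplasm.

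The study asked which mRNAs are held in the nucleus when the m6A writer is depleted, by the change in the nuclear/cytoplasmic ratio between RNAi and control cells. Of the 37 tested members, 2 passed, HOXA3 and HOXD4, both with a higher ratio, which is 5.41%. Of all genes tested, 18.2% were called (10.4% with a higher and 7.88% with a lower ratio). The median log2 change of the ratio was 0.115 over the members and -0.047 over all genes. Without RNAi cytoplasmic replicate 1 the median of the members was -0.033. With library size as the only scaling 5 members were called, all with a higher ratio. Of all genes, 14.8% were called with that scaling, 2236 with a higher and 164 with a lower ratio.

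HOXA3, which is needed for the thymus and parathyroid, was at 25.5, 29.6 and 28.7 TPM in the control nuclei, 33.9, 46.5 and 39.4 TPM in the RNAi nuclei, 30.9 TPM in the control cytoplasm and 24.4 and 20.4 TPM in the RNAi cytoplasm. All RNAi nuclear values lay above all control nuclear values, and both RNAi cytoplasmic values lay below the control one. The ratio rose by a log2 of 0.64 ± 0.17 (SE, FDR = 0.0404 in edgeR). In nuclei alone the log2 change was 0.47, under the threshold of 0.5, and in cytoplasm alone it was -0.17, not called. Without RNAi nuclear replicate 3 the ratio change was 0.59 and no longer called. Of the HOXA3 TPM, 50.3 to 69.3% went to the coding transcript HOXA3-201.

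HOXD4, a gene of the hindbrain and upper spine, was at 2.20, 5.29 and 4.31 TPM in the control nuclei, 3.33, 3.23 and 3.43 TPM in the RNAi nuclei, 1.17 TPM in the control cytoplasm and 0.142 and 0.255 TPM in the RNAi cytoplasm. The nuclear groups overlapped, and the RNAi cytoplasm lay below the control cytoplasm. The ratio rose by a log2 of 2.05 ± 0.66 (SE, FDR = 0.072 in edgeR) and the cytoplasmic level fell by 2.27 on the log2 scale (FDR = 0.0253 in edgeR). The RNAi cytoplasmic values rest on 3 and 4 estimated counts, against 26 in the control cytoplasm. The ratio was no longer called without RNAi nuclear replicate 1 (1.99), RNAi nuclear replicate 3 (2.04), RNAi cytoplasmic replicate 1 (1.62) or RNAi cytoplasmic replicate 2 (2.54).

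Within nuclei 4 of the 37 members were called between RNAi and control cells (10.8%), HOXC5 higher and HOXA5, HOXA6 and HOXA13 lower. Of all genes, 4.89% were called (2.47% higher and 2.42% lower). HOXC5 was at 3.60, 4.34 and 4.52 TPM in the control nuclei and 7.02, 6.46 and 7.70 TPM in the RNAi nuclei, a log2 change of 0.74 ± 0.15 (SE, FDR = 0.0367 in edgeR). It also rose in cytoplasm, from 1.66 TPM to 2.78 and 2.20 TPM, by 0.85 ± 0.27 (SE, FDR = 0.047 in edgeR). The RNAi values of HOXC5 thus lay above the control values in both fractions.

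HOXA5 and HOXA6 are neighbours in the HOXA cluster and fell in both fractions. HOXA5, which acts in lung and in the cervical spine, was at 28.7, 55.0 and 42.2 TPM in the control nuclei, 29.7, 34.7 and 24.4 TPM in the RNAi nuclei, 22.3 TPM in the control cytoplasm and 12.1 and 11.5 TPM in the RNAi cytoplasm. Its TPM ranges overlapped in nuclei, where its log2 change on the scale of the test was -0.63 ± 0.15 (SE, FDR = 0.0474 in edgeR), and in cytoplasm it fell by 0.75 on the log2 scale (FDR = 0.0375 in edgeR). HOXA6 was at 27.2, 36.4 and 35.0 TPM in the control nuclei, 21.2, 23.7 and 24.4 TPM in the RNAi nuclei, 13.9 TPM in the control cytoplasm and 6.40 and 5.03 TPM in the RNAi cytoplasm. It fell by 0.52 in nuclei and by 1.07 in cytoplasm on the log2 scale (FDR = 0.041 and 0.00429 in edgeR), with no overlap of the groups in either fraction.

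HOXA13, with the limit on its transcript given above, was at 3.63, 6.28 and 3.53 TPM in the control nuclei and 2.11, 2.90 and 2.35 TPM in the RNAi nuclei, a log2 change of -0.87 ± 0.25 (SE, FDR = 0.0855 in edgeR). No member was called in nuclei once control nuclear replicate 3 or RNAi nuclear replicate 3 was left out, where 0.548 and 0.327% of all genes were called. HOXC5 alone was called without RNAi nuclear replicate 2, and HOXA3 alone, higher, without RNAi nuclear replicate 1. Of all genes, 0.662 and 1.61% were called in these fits. With library size as the only scaling 1 member was higher and 0 lower, with 3.03% of all genes called.

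Within cytoplasm 8 of the 37 members were called (21.6%), 3 higher and 5 lower, against 24.6% of all genes (10.4% higher and 14.2% lower). The control group here is a single sample, whose spread was taken to equal that of the other groups. Besides HOXC5, the members that rose included HOXC11 (0.58 ± 0.18, FDR = 0.0415 in edgeR), which was at 22.4 TPM in the control cytoplasm and 27.4 and 27.6 TPM in the RNAi cytoplasm.

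Besides HOXD4, HOXA5 and HOXA6, the members that fell were HOXA10, which patterns the uterus, and HOXC6. HOXA10 fell by 0.58 on the log2 scale (FDR = 0.0193 in edgeR). HOXC6 was at 34.6 TPM in the control cytoplasm and 20.7 and 18.9 TPM in the RNAi cytoplasm and fell by 0.61 on the log2 scale (FDR = 0.0387 in edgeR). HOXC6 shares 16.1% of its exonic bases with HOXC4 and HOXC9. Without RNAi cytoplasmic replicate 1 the count was 2 higher and 2 lower, and without RNAi cytoplasmic replicate 2 it was 0 higher and 7 lower. With library size as the only scaling the count was 0 higher and 6 lower, with 22.4% of all genes called. The median of all genes then moved from 0.011 to -0.236, so the calls of HOXC5 and HOXC11 depended on the scaling.

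**Figure D5:**
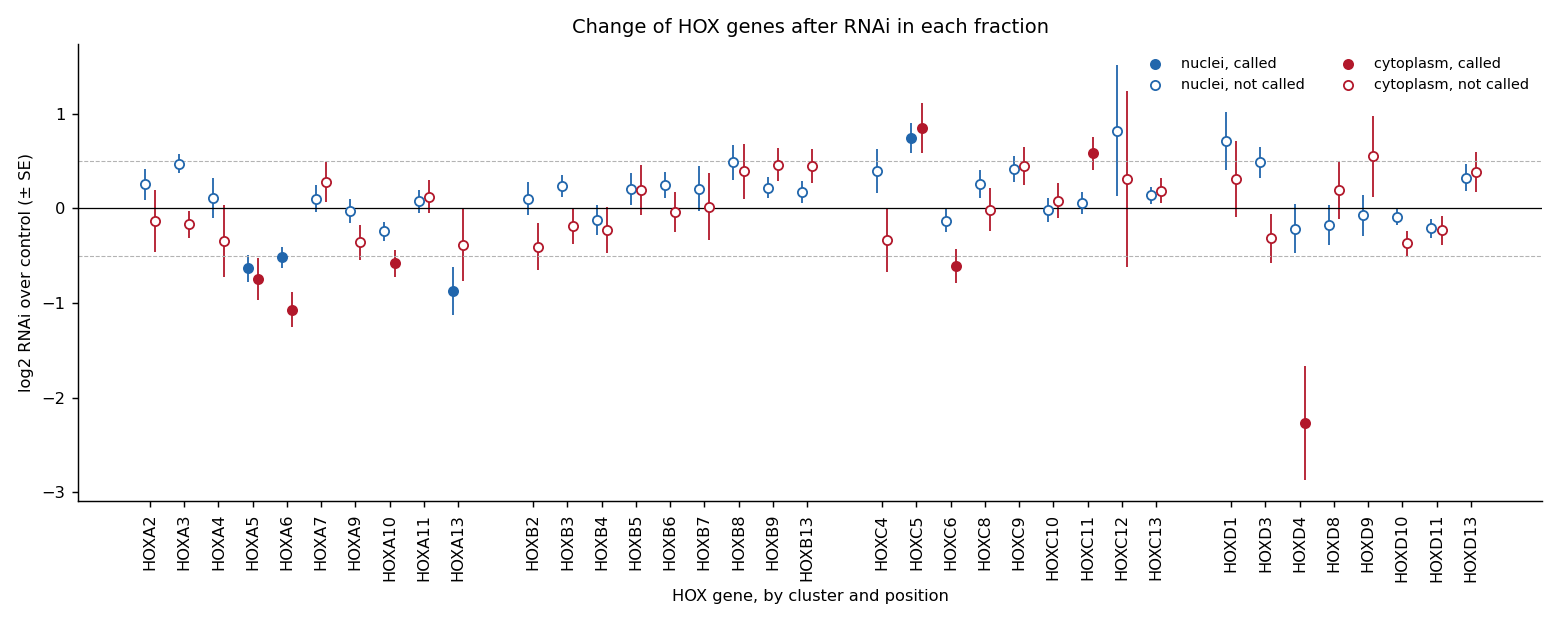
Log2 change between RNAi and control cells (± SE, edgeR) in nuclei (blue) and cytoplasm (red) for tested members, ordered by cluster and position; filled points passed both thresholds and dashed lines mark 0.5 and -0.5. HOXA5 and HOXA6 lie below 0 in both fractions, HOXC5 lies above 0 in both, and HOXD4 falls to -2.27 in cytoplasm.

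Over the 3 comparisons between RNAi and control cells 10 members were called at least once, a count for which no share over all genes was computed. Of the 10 most abundant members, HOXA10 in cytoplasm was the only one called. HOXB9 changed by a log2 of 0.22 ± 0.11 in nuclei and 0.46 ± 0.17 in cytoplasm and HOXC10 by -0.01 ± 0.13 and 0.08 ± 0.19 (SE), none of them called. HOXC4 had 1 RNAi nuclear sample apart from the rest, replicate 1 at 53.5 TPM against 35.7 and 35.0 TPM, and was not called.

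HOX mRNAs have few exons. In the most abundant transcript of each gene the median number of exons was 2 for the members and 6 for the 13474 protein-coding genes tested. The median final exon measured 1112 and 826 bases, and made up 64.6 and 47.6% of the transcript. The letters GGACT, the DNA form of a common m6A consensus, occurred on the sense strand of 37 of the 39 transcripts (94.9%) and in 80.9% of those of the protein-coding genes, at medians of 1.12 and 0.956 per kb. In the sequences scanned HOXB9 and HOXB4 held none, HOXA3 held 2 and HOXD4 held 1. These sequences came from the lifted annotation and can differ from those quantified under the same identifier. For HOXB4, 2002 bases were scanned against 3757 quantified, and for HOXB9 2586 against 2705. For HOXD4 the lengths were 1136 and 1464 bases, and for HOXA3 2763 and 2574. The letters were not counted in the quantified sequences. Methylation itself was not measured in these files. Across the 37 tested members the Spearman correlation of the GGACT density with the change in ratio was 0.09, and that of transcript length with the nuclear excess was -0.41 in control and -0.41 in RNAi cells, both as descriptions over genes that share all libraries.

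The counts over gene lists that follow stand beside 10.4% of all genes with a higher and 7.88% with a lower ratio, and 2.47% higher and 2.42% lower in nuclei. All 9 TALE partners were detected at a mean of 5.38 TPM or more, MEIS3 highest with 35.3 TPM. In the ratio comparison 0 of 9 were higher and 3 were lower, PBX2 (-0.98), PKNOX2 (-0.67) and MEIS3 (-0.51), and in nuclei PBX2 alone was called, lower. Of the 30 Polycomb genes, which keep HOX genes silent, 29 were tested, 4 had a higher ratio, among them SUZ12 (2.04), PHC3 (1.42) and BMI1 (1.23), and 1 was higher in nuclei. Of the 20 trithorax and H3K27 demethylase genes, which oppose them, 4 had a higher ratio, among them BPTF (1.96), KMT2C (1.92) and ASH1L (1.74), and 1 was lower in nuclei.

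Of the non-coding RNAs of the HOX clusters, 17 were tested. In control cells 8 of the 17 were nuclear and 1 was cytoplasmic, against 28 and 22.7% of all genes. In RNAi cells 9 were nuclear and 2 cytoplasmic, against 32.9 and 24.9%. HOTAIR, transcribed from the HOXC cluster, was at 10.04 to 14.5 TPM in nuclei and 3.18 to 3.82 TPM in cytoplasm. HOXB-AS3 was at 56.5 to 83.1 TPM in nuclei and 17.1 to 31.5 TPM in cytoplasm. In the ratio comparison 3 of 17 were higher, HOXB-AS2 (5.34 ± 1.66), HOXC-AS3 (2.04 ± 0.62) and HOXA-AS2 (0.94 ± 0.31, SE), and none of the 17 was called in nuclei. HOXB-AS2 was at 0.354 TPM in the control cytoplasm and at 0 in both RNAi cytoplasmic samples, so the size of its fitted change depends on the prior count. Whether the counting used the strand is not given in the sources used here, so that reads of antisense RNAs and of the HOX genes they overlap could not be told apart.

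Of the other lists, 3 of 12 tested flanking genes had a higher ratio (ATF2 1.82, SKAP2 1.21 and LNPK 0.87) and 0 were called in nuclei. Of 27 other homeobox genes, 3 had a higher ratio (among them ZEB1 2.72 and ZHX1 1.76) and 1 was higher in nuclei. Of 11 kidney patterning genes, 1 had a higher ratio (SIX4 0.75) and 1 a lower one (RET -1.03), and in nuclei 1 was higher and 1 lower. Of 7 RNAs listed as nuclear retained, 6 were called nuclear in control cells and 6 in RNAi cells, against 28 and 32.9% of all genes. Of these 7, 3 had a higher ratio (KCNQ1OT1 1.58, MALAT1 1.33 and NEAT1 0.84) and 2 were higher in RNAi than in control nuclei. Of 5 neuronal genes, ENO2 had a lower ratio (-0.84), and in nuclei NEFM was higher and ENO2 lower. Of 3 blood, endothelial and fibroblast genes, COL1A1 had a lower ratio (-0.73) and 0 were called in nuclei. The blood genes PTPRC and CD3E and the endothelial genes CDH5 and KDR had means under 0.5 TPM. In this list 2 genes had means of 1 TPM or more, and it summed to 24.5 to 32.5 TPM in nuclei and 25.5 to 29.7 TPM in cytoplasm. Both siRNA targets were lower in nuclei. These counts over lists were given no test of their own.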

How the data were processed

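mRNA libraries of nuclear and cytoplasmic fractions were sequenced in pairs. Read ends were removed by the authors using cutadapt, and abundances came from Salmon (versions not given in the sources used here) against Ensembl transcripts of hg19. The deposited tables list estimated counts and TPM per transcript, normalised by the authors to transcript length and library total. Here transcripts were matched by identifier to GENCODE 44 lifted to GRCh37, which placed 183122 of 215170 transcripts and 83.07 to 88.31% of the counts, and were summed per gene. Gene counts were rounded and tested with edgeR 4.0.16 in R 4.3.3 (TMM scaling, quasi-likelihood test, 4 groups with no block, genes with at least 10 counts in at least 3 samples). A gene was called at an absolute log2 change above 0.5 and an FDR under 0.1. The alternatives were other scalings, DESeq2 1.42.0, limma 3.58.1 on log2(TPM + 1) and log2(TPM + 0.1), other filters, a length offset, a replicate block and leaving out each sample. A fit on protein-coding genes only was added after seeing the data. The code was tested on simulated data. The members and lists were chosen with earlier results of these data known. Counts cover counting error only. Some items are not reported here, in the text or the figures, and the counts are over all members.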

Additional observations from a re-analysis of the deposited data

Results flagged for a closer look

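The effect of RNAi differed between the fractions, by the interaction term of edgeR's quasi-likelihood fit, for 2 of the 37 tested HOX genes. For HOXA3 the log2 change of the nuclear/cytoplasmic ratio was 0.64 (FDR = 0.0404 in edgeR), with a change of 0.47 in nuclei and of -0.17 in cytoplasm. For HOXD4 it was 2.05 (FDR = 0.072 in edgeR), with a change of -0.22 in nuclei and of -2.27 in cytoplasm, and the RNAi cytoplasmic values rest on 3 and 4 estimated counts. Both comparisons use the single control cytoplasmic sample, so how far that sample stands for its group was not tested.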

How the results depend on the processing

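Of 1144 recomputed values of single genes, 1003 kept their direction and their side of the threshold, 141 lost the call and 0 reversed. For the nuclear/cytoplasmic ratio, where 2 members were called, the count was 5 with library size only, 4 with at least 10 counts in every sample, 1 with the length offset, 0 with limma on log2(TPM + 1) (7 members at an unadjusted p under 0.05), 1 at an FDR of 0.05, 4 with protein-coding genes only (added after seeing the data) and 0 to 3 when each sample was left out. Of all genes, 14.8% were called for the ratio with library size only and 19.7% with at least 10 counts in every sample. The length offset gave 11%, that limma fit 6.64% and the FDR of 0.05 11.7%. In the fit on protein-coding genes 19.5% were called, and 11.9 to 21.6% of all genes when each nuclear sample was left out. The median change of the members, 0.115, was 0.391 with library size only and 0.394 and 0.438 in limma with pseudocounts of 1 and 0.1. It ranged from -0.033 (without RNAi cytoplasmic replicate 1, a reversal) to 0.23 when each sample was left out. In nuclei, where 4 were called, the count was 1 with library size only, 2 with the length offset, 0 in both limma fits (7 and 6 members at an unadjusted p under 0.05) and 0 to 4 when each sample was left out. In cytoplasm, where 8 were called, it was 5 with the length offset, 3 and 4 in limma and 4 to 8 when each sample was left out. Between the fractions it was 21 to 25 in RNAi cells and 20 to 22 in control cells when each sample was left out. In limma with pseudocounts of 1 and 0.1, 10 and 11 members were nuclear and 4 and 4 cytoplasmic in control cells (12 and 9 in edgeR), and 17 and 18 were nuclear and 3 and 3 cytoplasmic in RNAi cells (15 and 9 in edgeR). Of all genes, 3.03% were called in nuclei with library size only, 2.73% with the length offset and 1.08 and 0.136% in limma. In cytoplasm it was 17% with the length offset and 9.24 and 11.7% in limma. Between the fractions limma called 38 and 39.5% of all genes in control cells and 45.4 and 50.7% in RNAi cells. With each nuclear sample left out, 0.327 to 6.73% of all genes were called in nuclei and 21.4 to 28.1% in cytoplasm. With CPM the HOXA share was 17.13% and the HOXB share 52.69%, and with coding transcripts only the HOXB share was 46.4% and the HOXD share 10.53%. The cause was not tested.

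The deviations of same-numbered nuclear samples from their group means had correlations of 0.185, 0.11 and 0.042. Differently numbered ones had -0.172 to 0.056. Each control nuclear sample correlated best with its own number, but RNAi nuclear replicate 3 had 0.056 with control nuclear replicate 2. The main fit did not pair the samples, and whether the number marks pairs was not settled. With the replicate block 5 members were called for the ratio, 5 in nuclei and 12 in cytoplasm. Between the fractions 25 were called in RNAi cells and 22 in control cells. Of all genes, 25, 6.4, 29.2, 57.7 and 49.8% were called with the block, in the same order. Without the block these shares were 18.2, 4.89, 24.6, 57.8 and 50.8%. The median ratio change of the members reversed to -0.023 with the block. The ratio and the cytoplasmic comparison could not be run without the single control cytoplasmic sample, and members near the floor of 3 counts, such as HOXD4 in the RNAi cytoplasm, are limited by depth.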
